A study of Mus musculus with 4 samples.

Results

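Retnla, Chil3, Mgl2, Clec10a, Ear2 and Ccl24 are 6 genes used as markers of alternatively activated macrophages (Mφs), and they were followed here as 6 of the 16308 genes counted in each library. They were chosen by name, as rows of the count tables, and all 6 were present. The libraries hold CD45+ leukocytes from the muscularis, the outer muscle layer of the mouse small intestine, after surgical handling of the gut (intestinal manipulation) had inflamed it. WT mice were C57BL/6J and CCR2 KO mice were Ccr2-/- of the strain B6.129S4-Ccr2tm1Ifc/J, which lack in every cell the receptor that brings monocytes out of the bone marrow. All mice were 12 weeks old and had undergone the manipulation, and cells were taken 24 h or 72 h later. Each of the 4 libraries pooled several mice, with 1 library per group. Where values of all 4 are listed they stand in library order, with WT and then CCR2 KO at 24 h before WT and then CCR2 KO at 72 h.

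Alternative activation is the response of Mφs to the type 2 cytokines IL-4 and IL-13, which signal through IL-4 receptor alpha and the transcription factor STAT6. Retnla encodes RELM-alpha and Chil3 encodes Ym1, both secreted proteins that are classical readouts of this response in mice. Mgl2 and Clec10a encode the related galactose-type C-type lectins CD301b and CD301a, which also mark a type of dendritic cell (DC). Ear2 encodes a ribonuclease of the eosinophil-associated family, and Ccl24 encodes eotaxin-2, a ligand of the eosinophil receptor CCR3.

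The genes lie on 5 chromosomes of the build GRCm38, where Mgl2 (ENSMUSG00000040950.13, chr11:70130329-70137550, plus strand) and Clec10a (ENSMUSG00000000318.16, chr11:70156197-70170834, plus strand) are neighbours 18646 bases apart. Retnla (ENSMUSG00000061100.4) is at chr16:48842551-48844461 on the plus strand and Chil3 (ENSMUSG00000040809.10) at chr3:106147554-106167564 on the minus strand. Ear2 (ENSMUSG00000072596.4) is at chr14:44102654-44103534 on the plus strand and Ccl24 (ENSMUSG00000004814.10) at chr5:135569937-135573049 on the minus strand. All are protein coding. Promoters from 250 bases before to 50 bases after the start site were found in RefSeq (GRCm38.p6) for 4 members, namely Retnla, Chil3, Mgl2 and Ear2. Those of Retnla and Chil3 are shown because they are the members that held a STAT6-type match, TTC and GAA with 4 or 3 bases of any kind between them, given in capitals. They lie at chr16:48842359-48842658 on the plus strand and chr3:106167515-106167814 on the minus strand.
Retnla: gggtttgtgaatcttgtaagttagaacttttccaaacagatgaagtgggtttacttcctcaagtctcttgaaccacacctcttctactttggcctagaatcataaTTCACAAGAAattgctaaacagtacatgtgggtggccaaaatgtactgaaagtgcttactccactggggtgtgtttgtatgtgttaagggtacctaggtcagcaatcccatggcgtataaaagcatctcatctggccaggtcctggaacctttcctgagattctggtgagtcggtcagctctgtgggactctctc
Chil3: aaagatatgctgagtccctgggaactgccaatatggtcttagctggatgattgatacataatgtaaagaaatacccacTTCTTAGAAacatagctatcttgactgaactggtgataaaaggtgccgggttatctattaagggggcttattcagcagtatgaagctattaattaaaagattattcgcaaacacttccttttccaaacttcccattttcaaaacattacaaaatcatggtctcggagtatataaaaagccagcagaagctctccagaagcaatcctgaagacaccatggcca
The match in Retnla has 4 bases between its ends and begins at position -145 from the start site, and the match in Chil3 has 3 and begins at -172. Each reads on both strands. Positions are counted from the start site of the RefSeq promoter, which for Retnla and Mgl2 lies downstream of the gene start given above. Of 32851 promoters of the same length, 6.95% held the form with 4 bases and 8.30% the form with 3. A C/EBP-type match (TTGCNNAA, 10.8% of promoters) was found in Retnla at -134 and in Ear2 at -90, and a PU.1-type match (GAGGAA, 28.3% of promoters) in Retnla at -196 and in Mgl2 at -225. Both strands were searched and no matches overlapped. A match of letters is a description and not a bound site.

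The libraries held 1674, 1774, 1315 and 1048 cells in library order, 5811 in all, with 9736725 to 21206308 UMIs (unique molecular identifiers, 1 per captured transcript) and medians of 3281.5 to 12859 UMIs per cell. Only 4 cell barcodes occurred in more than 1 library. A level in CPM is the number of UMIs of the gene for each 1000000 UMIs in the class, with an exact Poisson 95% interval in brackets. These intervals cover counting error only, and because no group had a replicate library no test between groups was possible. Classes were gated from marker genes that exclude the 6 members, which placed 5576 cells and left 235 ungated. Monocyte/Mφ-gated cells numbered 1252, 199, 891 and 122, with similar medians of 14193 to 16266 UMIs per cell. Of these 2464 cells 37 lay just inside the margin of the gate, and 37 others just outside it. The summed level of the 12 monocyte/Mφ markers was 10820 to 19241 CPM in this class, against 5.67 to 112 CPM for the 6 markers of type 2 DCs. Some other lists were higher there. The 10 neutrophil markers summed to 928, 619, 489 and 528 CPM in library order. Type 1 DC markers summed to 196 to 319 CPM and plasma cell markers to 271 to 357 CPM. The part of such signal in the levels of the members was not tested. No eosinophil class could be described, since the eosinophil gate held at most 1 cell per library. Only 4 of its 6 marker genes were in the count tables. The study named an eosinophil cluster by Siglecf, Cxcr4 and Pim1, which this gate did not use. The near-empty gate therefore does not show that eosinophils were absent. Ccr2 itself was at 756 and 1065 CPM in WT and at 92.8 and 84.5 CPM in CCR2 KO monocyte/Mφ-gated cells at 24 h and 72 h, so transcripts of the targeted gene were lower but still counted.

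In both WT libraries the monocyte/Mφ gate held more UMIs of each member than any other class. Its share in WT at 72 h was 97.2% of Retnla, 96.7% of Chil3, 69.1% of Mgl2, 73.1% of Clec10a, 75.2% of Ear2 and 97.6% of Ccl24 UMIs. In the CCR2 KO libraries, where the gate held fewer cells, it held 97.0% of Ccl24 UMIs at 24 h and 88.8% at 72 h. For Chil3 it held 79.5% and 75.5% there, beside 17.2% and 18.2% in neutrophils, which had 4.62% and 0.466% in WT. Clec10a UMIs of CCR2 KO were mostly in type 2 DCs (71.5% at 24 h and 64.4% at 72 h), as were those of Ear2 at 24 h (72.7%). At 72 h Ear2 UMIs of CCR2 KO were spread over type 1 DCs (33.2%), type 2 DCs (26.0%), ungated cells (21.2%) and the monocyte/Mφ gate (18.8%). Mgl2 UMIs of CCR2 KO were in the monocyte/Mφ gate (48.4% at 24 h and 22.4% at 72 h) and type 2 DCs (47.8% and 45.8%). Ungated cells of CCR2 KO at 72 h held 24.4% of Mgl2 and 17.5% of Clec10a UMIs. By level rather than share, Mgl2 and Clec10a were highest in type 2 DCs in every library, among gated classes with at least 20 cells. Ungated cells of CCR2 KO at 72 h were at 944 CPM of Mgl2, against 809 in type 2 DCs. Lymphocyte-gated cells, which should lack all 6, held at most 7 UMIs of any member per library, from 0 to 11.8 CPM.

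**Figure D1:**
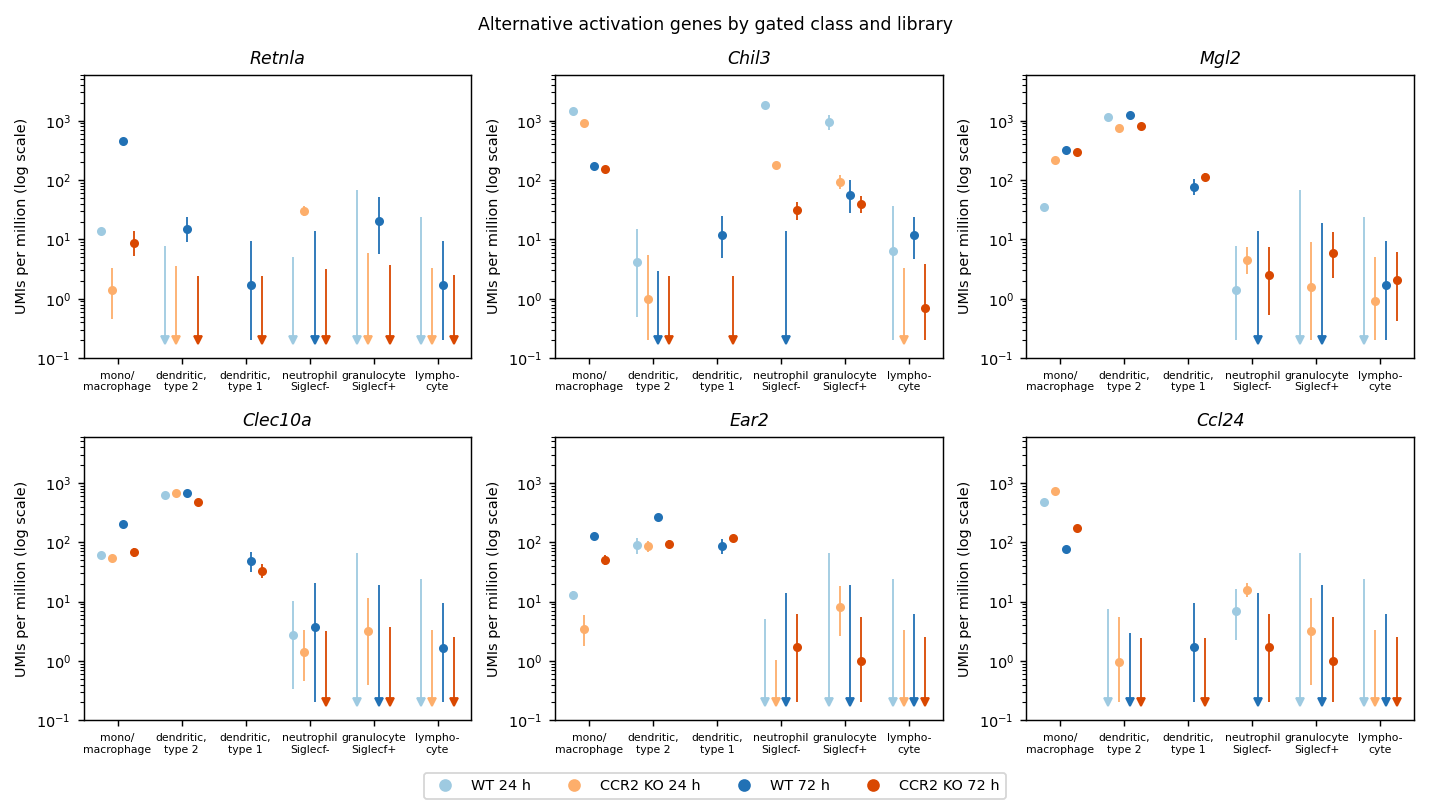
Level of each member (CPM, log axis) in 6 gated classes of the 4 libraries. Points are single libraries, lines are exact Poisson 95% intervals, and triangles mark 0 UMIs with a line to the upper limit. Classes with fewer than 20 cells are not drawn. Ccl24 stands apart in monocyte/Mφ-gated cells, whereas Mgl2 and Clec10a are highest in type 2 DCs.

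Within the monocyte/Mφ gate, members were called past 2-fold when the ratio of CPM, with 1 CPM added to both, reached 2 and the pair of libraries held at least 20 UMIs. In CCR2 KO against WT at 24 h, 1 of 6 members was higher and 2 were lower, against 3.16% higher and 2.03% lower of the 10679 genes with enough UMIs. At 72 h, 1 was higher and 3 were lower, against 6.11% and 4.21% of 10945 genes. From 24 h to 72 h in WT, 4 were higher and 2 lower, against 10.7% and 4.3% of 11502 genes, so that all 6 members differed between the times. In CCR2 KO, 2 were higher and 2 lower from 24 h to 72 h, against 12.1% and 4.23% of 9570 genes. The median log2 ratio over the members was -0.44, -0.75, 2.42 and 0.37 in these comparisons, beside -0.06, 0.09, 0.10 and 0.18 over all genes with enough UMIs. The comparisons share libraries and are not independent of each other.

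**Figure D2:**
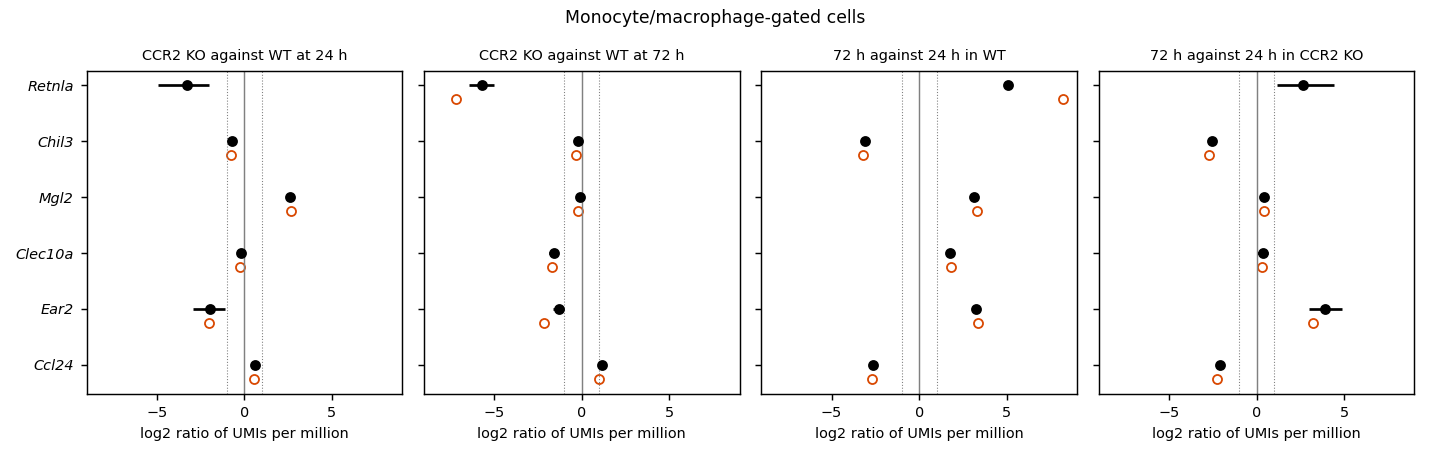
Log2 ratio of the CPM of each member in monocyte/Mφ-gated cells for the 4 comparisons. Black points have exact 95% counting intervals, open circles give the ratio without the cell that held most UMIs of the gene in each library, and dotted lines mark 2-fold. Retnla has no open circle where 1 library held no other UMI.

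Retnla, which encodes the secreted RELM-alpha, was counted mainly in WT cells at 72 h. Its level in monocyte/Mφ-gated cells was 13.8 CPM (12.1 to 15.5) at 24 h and 456 (445 to 468) at 72 h for WT mice. For CCR2 KO mice the same levels were 1.42 (0.461 to 3.31) and 8.85 (5.24 to 14.0). Only the WT 72 h library was high, and its interval did not touch those of the other 3. The log2 ratio of CCR2 KO to WT at 72 h was -5.69 (-6.44 to -5.03), and that of 72 h to 24 h in WT was 5.05 (4.87 to 5.23).
Retnla UMIs were held by few cells. At 72 h in WT 110 of 891 cells had any, the highest cell held 1209 of 5960 UMIs and 5 cells together held the greater part. Without that cell the WT 72 h level was 364 CPM and the log2 ratio of CCR2 KO to WT, with the highest cell also left out of CCR2 KO, was -7.19. At 24 h 1 cell held 239 of the 263 UMIs in WT, and the other cells were at 1.26 CPM (0.805 to 1.87). In CCR2 KO at 24 h all 5 UMIs of the gate were in 1 cell. A further 106 of the 112 Retnla UMIs of that library were in 1 neutrophil-gated cell, which had 49 Ccl24, 43 Fn1 and 22 Arg1 UMIs and the monocyte/Mφ class as its second score. The log2 ratio of CCR2 KO to WT at 24 h, -3.28 (-4.91 to -2.04), therefore rested mainly on 1 cell in each library, and it was 0.85 when clusters replaced the gate and 0.13 among cells with at most 5% mitochondrial UMIs. The same holds for 72 h against 24 h in CCR2 KO, which was 2.64 (1.16 to 4.43) and -1.90 by clusters, on 18 and 5 UMIs. Genes of large peritoneal Mφs, another possible source of these cells, summed to 94.1, 16.2, 137 and 66.8 CPM in the gate, and their part in the Retnla levels was not tested.

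**Figure D3:**
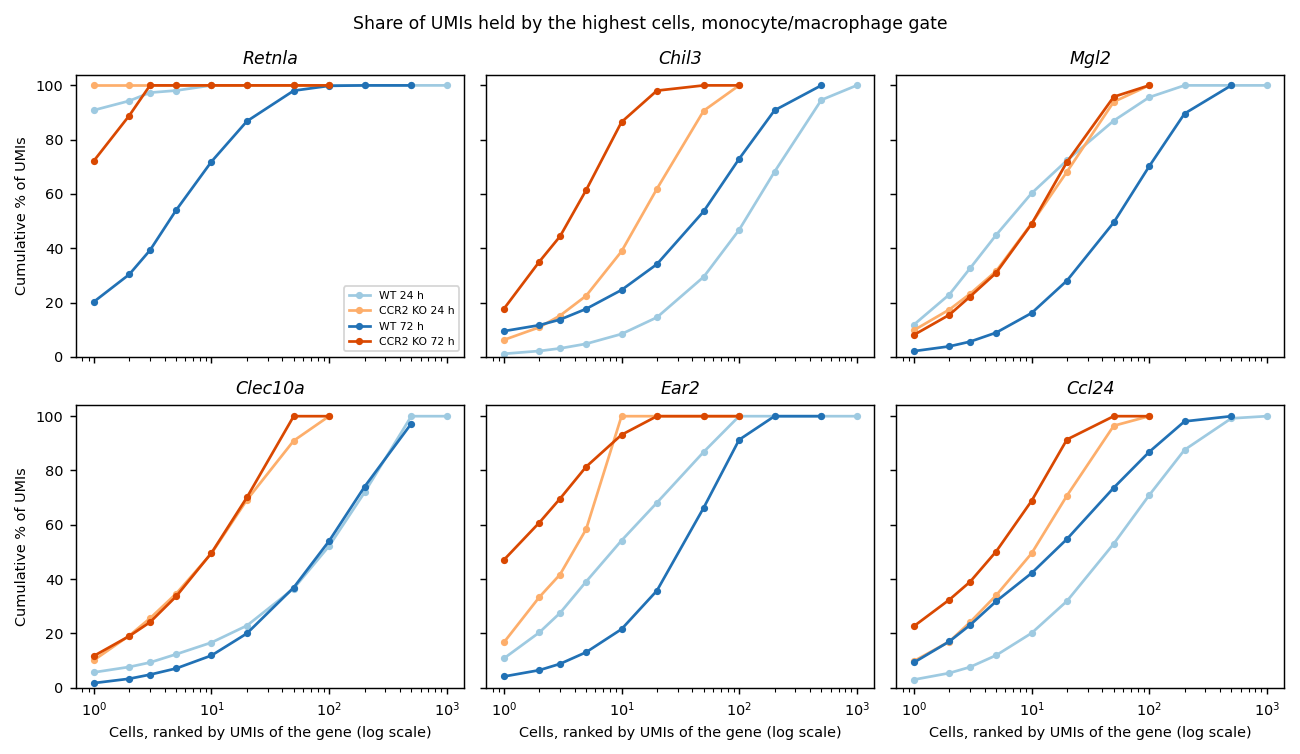
Cumulative share of the UMIs of each member (percent) held by monocyte/Mφ-gated cells ranked by their UMIs of that gene (log axis), 1 line per library. A line that starts high means that few cells carry the gene: the first cell held 90.9% of Retnla UMIs in WT 24 h, against 1.11% of Chil3 UMIs.

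Chil3 was the most abundant member at 24 h. Monocyte/Mφ-gated cells of WT mice had 1462 CPM (1445 to 1480) at 24 h and 175 (168 to 182) at 72 h. Those of CCR2 KO mice had 898 (867 to 930) and 153 (136 to 171). Both genotypes were thus high at 24 h and low at 72 h, with log2 ratios of 72 h to 24 h of -3.07 (-3.13 to -3.00) for WT and -2.55 (-2.73 to -2.39) for CCR2 KO. Neither difference between genotypes was past 2-fold, at -0.70 (-0.76 to -0.65) and -0.19 (-0.37 to -0.02).
In neutrophil-gated cells the WT level of Chil3 was 1775 CPM (1682 to 1871) at 24 h and 23.7 (11.8 to 42.4) at 72 h, and the CCR2 KO level was 165 (153 to 177) and 34.6 (27.2 to 43.4). WT neutrophils at 24 h were thus about as rich in Chil3 as monocyte/Mφ-gated cells and their level was above that of the other 3 libraries. Neutrophil-gated cells were not alike across libraries. Siglecf, a marker of eosinophils also found on some tissue neutrophils, was counted in 24 of 306 cells in WT and 190 of 1324 in CCR2 KO at 24 h, and in 79 of 182 and 278 of 557 at 72 h. By clustering, most neutrophils of WT 24 h, of CCR2 KO 24 h and of the 72 h libraries were in 3 different clusters. In a split chosen after the data had been seen, Chil3 among cells without a Siglecf UMI was at 1838, 177, 0 and 30.8 CPM in library order, and among cells with one at 945, 92.5, 56.3 and 39.1 CPM, highest in WT at 24 h in both. The share of neutrophils with a Chil3 UMI, after each cell had been thinned at random to 1000 UMIs, was 39.7%, 8.65%, 1.69% and 2.82%, and 47.4%, 15.0%, 3.30% and 7.0% without thinning, against 0% of thinned lymphocytes in each library.
Reads of Chil3 and its near-identical neighbour Chil4 may not have been told apart in counting. Chil4 had 5 UMIs in WT 24 h and 0 in the other libraries.

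Ccl24 in monocyte/Mφ-gated cells, like Chil3, was high at 24 h and low at 72 h, but its order of genotypes was the opposite. WT cells of the gate had 468 CPM (459 to 478) at 24 h and 76.1 (71.4 to 80.9) at 72 h, and CCR2 KO cells of the gate had 724 (696 to 752) and 172 (154 to 190). Within the gate CCR2 KO was the higher library at both times, with log2 ratios of 0.63 (0.56 to 0.69) and 1.17 (0.99 to 1.35). The second passed 2-fold, but was 0.96 without the highest cell of each library, which in CCR2 KO held 79 of 349 UMIs. From 24 h to 72 h the log2 ratio was -2.62 (-2.72 to -2.53) for WT and -2.08 (-2.24 to -1.92) for CCR2 KO. Over all cells of a library, of which the gate held 199 of 1774 in CCR2 KO and 1252 of 1674 in WT at 24 h, the order was turned. There Ccl24 was at 252 CPM in CCR2 KO and 423 in WT at 24 h, a log2 ratio of -0.75 (-0.81 to -0.69), and at 40.4 and 61.3 CPM at 72 h, a log2 ratio of -0.60 (-0.78 to -0.43). Ccr3, which encodes the receptor of this chemokine, marks eosinophils, for which no class could be gated.

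Mgl2 was lowest in WT at 24 h. Monocyte/Mφ-gated cells had 35.8 CPM (33.2 to 38.6) there, and 318 (309 to 328) in WT at 72 h. The CCR2 KO libraries had 220 (205 to 236) at 24 h and 292 (269 to 317) at 72 h. The other 3 libraries lay between 220 and 318 CPM. The log2 ratio of CCR2 KO to WT was 2.62 (2.47 to 2.77) at 24 h and -0.12 (-0.25 to 0.00) at 72 h, and that of 72 h to 24 h was 3.15 (3.04 to 3.27) for WT and 0.41 (0.25 to 0.57) for CCR2 KO. The difference between the 2 genotypes' time courses was not tested, for want of replicates. After thinning, 2.17%, 13.7%, 15.4% and 16% of cells had an Mgl2 UMI (10.4%, 40.7%, 47.1% and 58.2% unthinned), against 0% to 0.709% of thinned lymphocytes. The eosinophil list summed to 82.1 CPM in WT and 515 CPM in CCR2 KO at 24 h. As 3 of its 4 counted genes had 0 UMIs in CCR2 KO, the whole sum there came from the remaining gene and does not describe the list. Its part in the Mgl2 ratio was not tested.
Clec10a, the neighbouring lectin gene, had a different pattern in the same cells. It was at 60.5 CPM (57.0 to 64.1), 53.3 (46.0 to 61.5), 202 (194 to 210) and 67.3 (56.5 to 79.6) in library order. Only WT 72 h was high, and CCR2 KO was lower than WT at 72 h by a log2 ratio of -1.58 (-1.84 to -1.33), but not past 2-fold at 24 h (-0.18, -0.41 to 0.04). The summed level of the 6 markers of type 2 DCs in the gate was 20.3, 5.67, 112 and 25.6 CPM, also highest in WT 72 h, and its part in the levels of Clec10a, Mgl2 and Ear2 was not tested.

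Ear2 was highest in WT at 72 h among monocyte/Mφ-gated cells, at 125 CPM (119 to 131). The WT level at 24 h was 13.1 CPM (11.6 to 14.9), and the CCR2 KO levels were 3.4 (1.76 to 5.95) at 24 h and 50.1 (40.9 to 60.8) at 72 h. CCR2 KO was the lower library at both times, with log2 ratios of -1.95 (-2.92 to -1.12) on 12 and 251 UMIs and -1.32 (-1.62 to -1.03). At 72 h 1 CCR2 KO cell held 48 of 102 UMIs. Without it CCR2 KO was at 26.8 CPM and the log2 ratio, with the highest WT cell also left out, was -2.17. Among cells with at most 5% mitochondrial UMIs the log2 ratio was -0.65 and not past 2-fold. That limit left out most CCR2 KO cells of the gate at 72 h. The time ratios were 3.25 (3.06 to 3.45) for WT and 3.88 (3.01 to 4.88) for CCR2 KO. Without the highest cell of each library WT went from 11.7 to 120 CPM and CCR2 KO from 2.85 to 26.8 CPM. The CCR2 KO time ratio was then no longer the larger. The family holds near-identical copies whose reads may have been split. Ear1 and Ear6 had at most 9 UMIs in any library.

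Type 2 DC-gated cells, chosen without the lectin genes, carried Mgl2 and Clec10a in both genotypes. They numbered 33, 48, 73 and 57, and Mgl2 was at 1145 CPM (1051 to 1244), 749 (697 to 804), 1237 (1176 to 1300) and 809 (764 to 856) in library order. Clec10a was at 628 (560 to 703), 671 (622 to 723), 670 (625 to 717) and 470 (436 to 506). The log2 ratio of CCR2 KO to WT for Mgl2 was -0.61 (-0.77 to -0.45) at 24 h and -0.61 (-0.72 to -0.50) at 72 h, and for Clec10a 0.10 (-0.10 to 0.30) and -0.51 (-0.66 to -0.36), none past 2-fold. The 6.15-fold excess of Mgl2 in CCR2 KO monocyte/Mφ-gated cells at 24 h was thus not seen in type 2 DCs of the same libraries.
Ear2 in type 2 DCs was at 88.9 (64.3 to 120), 86.1 (69.1 to 106), 264 (236 to 294) and 93.9 (79.1 to 111) CPM, high only in WT at 72 h. Its log2 ratio of CCR2 KO to WT was -0.05 (-0.59 to 0.52) at 24 h and -1.49 (-1.78 to -1.20) at 72 h, and that of 72 h to 24 h was 1.57 (1.11 to 2.06) for WT and 0.13 (-0.27 to 0.53) for CCR2 KO. These Ear2 values depend on a change to the gate that was made after the members' values had been seen. With the first version of the gate, which left cells scoring for 2 types of DC ungated, type 2 DCs had 52.1, 26.5, 266 and 68.4 CPM, and the same 4 log2 ratios were -0.97, -1.96, 2.35 and 1.37, the last then past 2-fold. Type 1 DC-gated cells had 85.6 CPM of Ear2 in WT (23 cells) and 117 in CCR2 KO (44 cells) at 72 h. Retnla, Chil3 and Ccl24 had at most 19 UMIs per library in type 2 DCs, and 17 of those 19, of Retnla in WT 72 h, were in 1 cell. When clusters replaced the gate, the type 2 DC cluster held 237 Retnla UMIs (179 CPM) in WT 72 h and 32 Chil3 UMIs in WT 24 h, so these counts depend on the gate.

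Monocyte/Mφ-gated cells were then divided by the highest of 7 short marker lists, 6 named after subsets of the study and 1 for dividing cells. The Ccr2+ int and Fn1+ subsets of the study had no list here. The states are ranges of a score and not cell types, and no list held a member. Retnla in WT at 72 h was at 1548 CPM in the 133 Timp2-state cells, 536 in 25 dividing cells, 305 in 408 Cd206-state cells and 130 to 218 in the monocyte, Cx3cr1 and Arg1 states. A single cell held 1209 of the 3017 UMIs in the Timp2 state, 283 of 322 in dividing cells and 601 of 1811 in the Cd206 state, and without that cell the level was 940, 68.2 and 205 CPM. The Timp2 state was thus highest either way, whereas dividing cells then fell below the Cd206 state and the Arg1 state, which was at 165 CPM without its highest cell. In the monocyte and Cx3cr1 states 1 cell held 65 of 77 and 160 of 277 UMIs, and without it the level was 20.8 and 62.8 CPM. The Timp2 state had only 5 cells in CCR2 KO at 72 h, with 0 Retnla UMIs. The 30 Cd206-state cells of CCR2 KO at 72 h had 23.3 CPM, with all 13 UMIs in 1 cell. In a sum over the gate, fewer cells that carry a gene and fewer of its UMIs per cell cannot be told apart.
Chil3 was highest in the monocyte state of every library, at 3170, 3385, 743 and 1126 CPM in 281, 22, 42 and 11 cells. The paper itself names Chil3 among the marker genes of its monocytes. The monocyte list was named after that subset, so this ranking was no independent finding, although the list left Chil3 out. Ccl24 was higher in the Arg1 state, at 642, 1095, 137 and 670 CPM, than in the monocyte state, at 203, 206, 16.9 and 9.8 CPM. In WT at 72 h the Timp2 state was higher than the Arg1 state, at 162 against 94.4 CPM without the highest cell of each. Without its highest cell the Arg1 state of CCR2 KO at 72 h was at 474 CPM.
Mgl2 was highest in the Cx3cr1 state in 3 libraries, at 230 (WT 24 h, 27 cells), 991 (CCR2 KO 24 h, 38 cells) and 480 CPM (CCR2 KO 72 h, 35 cells). In WT at 72 h it was 450 CPM there, below 717 in the Arg1 state and 801 in dividing cells. The Cx3cr1 state held 38 of 199 cells of the gate in CCR2 KO at 24 h and 27 of 1252 in WT, and the summed level of its 3 marker genes was 606 CPM there against 105 in WT. Their part in the Mgl2 ratio was not tested. Ear2 in WT at 72 h was highest in dividing cells (458 CPM) and the Arg1 state (343 CPM), and low in the Cd206 state (31.8 CPM).

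**Figure D4:**
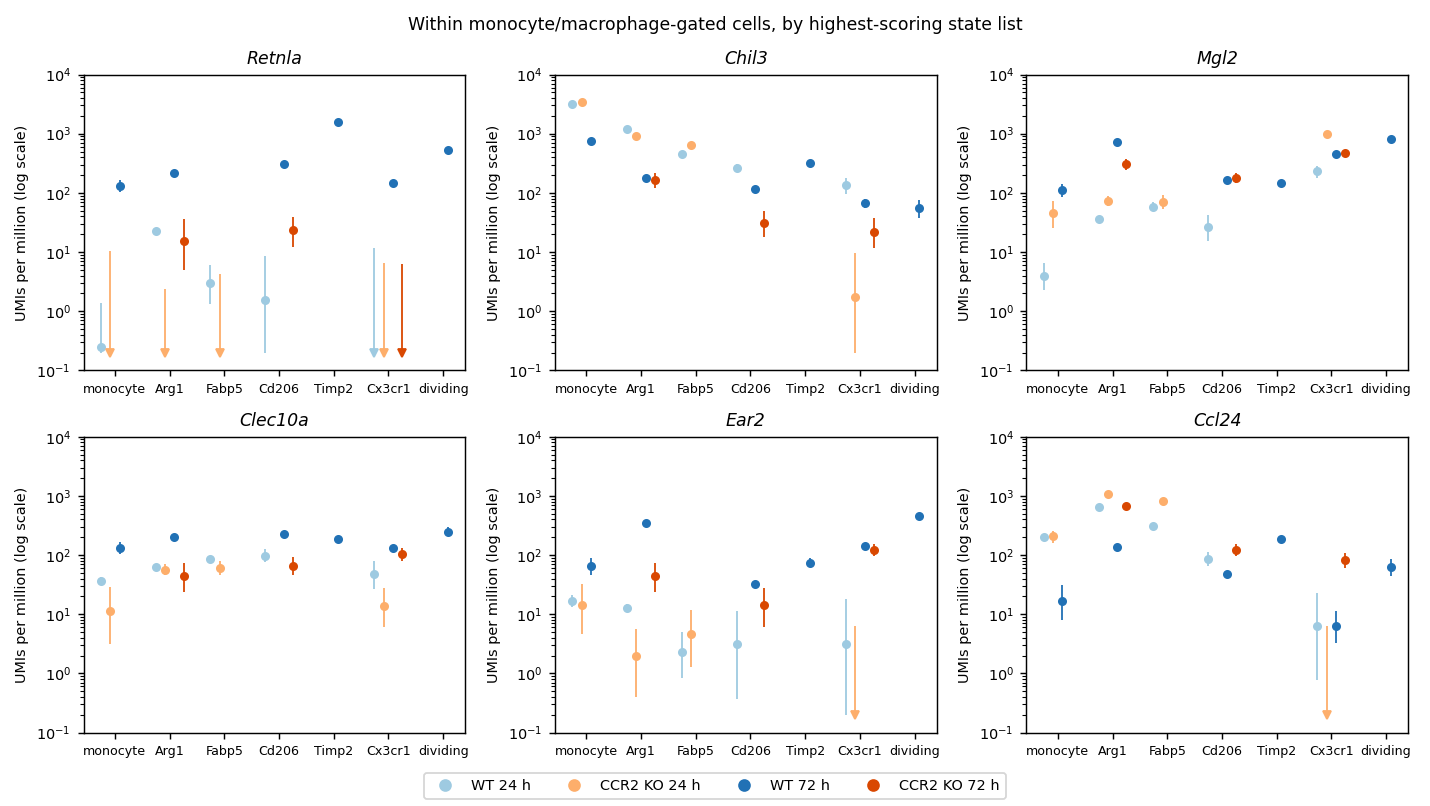
Level of each member (CPM, log axis) in monocyte/Mφ-gated cells by highest-scoring state list, for states with at least 20 cells in a library. Points are libraries with exact Poisson 95% intervals, and triangles mark 0 UMIs. Chil3 is highest in the monocyte state, and the paper already names it as a marker of monocytes. Ccl24 is highest in the Arg1 and Fabp5 states at 24 h, and Retnla in the Timp2 state of WT 72 h.

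How often members were counted in the same cell depended on depth. Without thinning, at least 2 members were detected in 57.9%, 50.3%, 64.1% and 51.6% of monocyte/Mφ-gated cells in library order, none in 9.5%, 8.54%, 11.8% and 12.3%, and all 6 in 2 cells, both of WT 72 h. After thinning to 1000 UMIs, at least 2 members were detected in 11.9% of monocyte/Mφ-gated cells in WT and 13.7% in CCR2 KO at 24 h, and in 12.8% and 3.36% at 72 h. No member was detected in 42.5%, 40.1%, 55.5% and 62.2% of thinned cells, and no thinned cell had all 6. In WT at 72 h, again after thinning, an Ear2 UMI was found in 23.5% (16.7 to 31.6, exact binomial 95% interval) of the 136 cells with an Mgl2 UMI and in 4.15% (2.84 to 5.84) of the others. At 24 h an Ear2 UMI was in 0 of 27 cells with an Mgl2 UMI in each genotype. Among the others it was in 15 of 1219 for WT and 2 of 170 for CCR2 KO. For CCR2 KO at 72 h it was in 2 of 19 and in 0 of 100 others. In thinned WT cells at 24 h a Chil3 UMI was found in 14.8% (4.19 to 33.7) of the 27 cells with an Mgl2 UMI and in 43.2% (40.3 to 46.0) of the others. Other pairs of members are not given here.

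Across 25 sums of a class in a library with at least 20 cells, the genes most like each member were found by Pearson r of log2(CPM + 10) among 10918 genes. Points share libraries, and r is given as a description. Retnla was most like Gm13710 (0.887), Serping1 (0.884) and Cd5l (0.876). Only the monocyte/Mφ sum of WT 72 h was high in Retnla, at 456 CPM. The next highest, neutrophils without Siglecf of CCR2 KO at 24 h (30.2 CPM), had 106 of 107 UMIs in a single cell. The r of Retnla therefore rested mainly on a single sum. Chil3 was most like Saa3 (0.964), Gm36161 (0.916) and Fam20c (0.868). Mgl2 was most like Slamf9 (0.982), Clec10a (0.973) and Spire1 (0.963), and Clec10a after Mgl2 most like Tnip3 (0.957) and Depdc7 (0.950). Ear2 was most like Hfe (0.965), Ppfia4 (0.958) and Nostrin (0.952), and Ccl24 most like the scavenger receptor gene Msr1 (0.984), Plcb1 (0.978) and the chemokine gene Ccl12 (0.972). Among the members themselves r was 0.900 for Mgl2 with Ear2 and 0.676 for Chil3 with Ccl24, but -0.07 for Chil3 with Mgl2.

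Other genes of the pathway were read in the same gate. Of the type 2 cytokines, Il4 had 0, 13, 3 and 17 UMIs and Il13 0, 1, 0 and 11 UMIs in whole libraries. Lymphocyte-gated cells were also more numerous in CCR2 KO, at 142 against 24 at 24 h and 168 against 86 at 72 h. In the 24 innate lymphoid cell-gated cells of CCR2 KO at 72 h Il13 had all 11 of its UMIs. That gate used Il13 as a marker, so this is no finding. Of 14 genes for IL-4 and IL-13 receptors and signalling, 2 were higher and 0 lower past 2-fold in CCR2 KO at 24 h, against 3.16% and 2.03% of all genes. At 72 h 0 were higher and 2 lower, against 6.11% and 4.21% of all genes. Cish, a feedback inhibitor of cytokine signalling, was in both counts, with log2 ratios of 1.40 (1.09 to 1.71) at 24 h and -1.92 (-2.71 to -1.22) at 72 h.
Of 16 transcription factors, 3 were higher and 0 lower in CCR2 KO at 24 h, against 3.16% and 2.03% of all genes. At 72 h none were higher and 4 were lower, against 6.11% and 4.21% of all genes. Bhlhe40 and Egr2 were in both counts, with log2 ratios of 1.64 (1.45 to 1.83) and 1.46 (1.30 to 1.61) at 24 h and -1.52 (-1.86 to -1.20) and -1.31 (-1.73 to -0.91) at 72 h. Irf4, a factor needed for alternative activation, had 21.7 CPM for WT and 7.86 for CCR2 KO at 72 h.
Of 24 other targets with enough UMIs, 6 were higher and 4 lower in CCR2 KO at 24 h, against 3.16% and 2.03% of all genes. At 72 h 3 were higher and 5 were lower, against 6.11% and 4.21% of all genes. The scavenger receptor gene Cd36 was higher at both times, by log2 ratios of 2.60 (2.46 to 2.74) and 2.32 (2.15 to 2.50). Alox15, a lipoxygenase of peritoneal Mφs, had 22.3 CPM for WT and 0.567 for CCR2 KO at 24 h. From 24 h to 72 h in WT, 6 of 25 were higher and 5 lower, against 10.7% and 4.3% of all genes. Igf1, a growth factor and marker of the Cd206 state, was higher by 3.47 (3.24 to 3.71), while Arg1, the arginase of alternative activation and marker of the Arg1 state, was lower by a log2 ratio of -3.04 (-3.10 to -2.99).
Of 16 classical activation genes with enough UMIs in WT, 8 were lower and 0 higher past 2-fold from 24 h to 72 h, and of 13 in CCR2 KO 10 were lower and 0 higher, beside the 4.3% and 4.23% of all genes that were lower. Between genotypes, 3 were higher and 2 lower of 16 in CCR2 KO at 24 h, against 3.16% and 2.03% of all genes. At 72 h 1 was higher and 5 were lower of 14, against 6.11% and 4.21% of all genes. Acod1, the enzyme of itaconate synthesis, had log2 ratios of -3.50 (-3.95 to -3.09) and -3.57 (-4.81 to -2.56).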

How the data were processed

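The deposited values are raw counts of UMIs per gene and cell. Per the labels, the authors prepared 10x 3' libraries, aligned and counted with Cell Ranger 3.0.2 on GRCm38 and removed cells with few genes or over 10% mitochondrial reads. Here counts were read in Python 3.11.15 with numpy 2.4.6, scipy 1.17.1, pandas 2.3.3, scanpy 1.11.5 and leidenalg 0.10.2. Each cell was scored for marker lists (mean of log-scaled levels, capped at the 90th percentile) and placed in its highest class if that score was at least 0.25, at least 2 markers were detected and the best class of another lineage family scored at most 0.75 times as much. States within the monocyte/Mφ gate needed a score of 0.3.

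Members, lists and markers were chosen with earlier results of these data known, and the scoring rule was set after the files had been seen. The gate was run in 2 versions. In the first, the margin was taken against any other class. It was replaced by the family rule after the members' levels had been examined, because many Ear2 and Mgl2 UMIs of CCR2 KO libraries lay in ungated cells between types of DC. The monocyte/Mφ gate held the same number of cells in both versions, and levels in type 2 DCs, and ratios that moved there, are given under both.

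Named genes were the 6 members, their 3 most similar genes, list genes past 2-fold (at most 5 per direction and comparison), paralogs and Ccr2. Ratios have exact conditional binomial intervals, and the functions were tested on simulated data. Totals of 9736725 to 21206308 UMIs per library set the precision. Doublets were not removed: Scrublet marked 10 of 5811 cells (0.172%), too few to have worked. Alternatives were other gates, Leiden clusters, depth and mitochondrial limits, scalings, pseudocounts and leaving out the highest cell.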

Additional observations from a re-analysis of the deposited data

How the results depend on the processing

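No paired analysis was possible because each group had 1 library. The number of members past 2-fold in monocyte/Mφ-gated cells stayed within 1.5 times its reported value in every alternative and comparison, although the split between directions changed where named here. Of 238 member ratios in that gate under an alternative, 232 had the same sign and 232 were on the same side of 2-fold. These totals include 24 ratios from the first version of the gate, which could not differ because that version left this class unchanged. A further 24 left out only the cells marked by Scrublet, and 24 were shifted only by medians of -0.07 to 0.10. The totals are therefore no measure of how robust the ratios are. The 3 ratios past 2-fold that turned their direction were all of Retnla, which was at 0.85 by clusters and 0.13 with at most 5% mitochondrial UMIs for CCR2 KO against WT at 24 h, and at -1.90 by clusters for 72 h against 24 h in CCR2 KO. Leaving out the 2 monocyte/Mφ-gated cells that Scrublet marked moved Ear2 in CCR2 KO against WT at 72 h from -1.32 to -2.22.

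In type 2 DCs the first version of the gate gave 1200, 667, 1249 and 801 CPM of Mgl2 and 641, 801, 672 and 496 CPM of Clec10a in library order. It gave, for CCR2 KO against WT at 24 h, -0.85 (Mgl2), 0.32 (Clec10a) and -0.97 (Ear2). It gave -1.96 for Ear2 at 72 h, 2.35 for Ear2 over time in WT, and 0.26 (Mgl2), -0.69 (Clec10a) and 1.37 (Ear2) over time in CCR2 KO. Clusters gave -0.67 for Ear2 in CCR2 KO against WT at 24 h, 0.36 for Mgl2 over time in WT, and 0.44 (Mgl2) and 0.86 (Ear2) over time in CCR2 KO. Ear2 over time in CCR2 KO DCs, 0.13 as reported, is therefore set by the choice of gate.

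Over all genes, the number past 2-fold was 554, 1130, 1728 and 1567 in the 4 comparisons (CCR2 KO against WT at 24 h and 72 h, then 72 h against 24 h in WT and CCR2 KO). It was 228, 500, 806 and 977 with 5 CPM added, and 322, 627, 1259 and 702 with at least 100 UMIs. With no minimum it was 666, 1372, 1756 and 2340.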
